A study of Mus musculus with 2 samples.

Results

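The genes examined were Prdm1, Prdm14, Tfap2c, Kit, Sox17 and Dppa4, which belong to the programme that specifies and maintains primordial germ cells (PGCs). They were found by matching the Ensembl identifiers of the count table to these 6 mouse symbols, and all 6 had a row among the 42422 genes of the table. Of the 6, 5 passed the filter on low counts and were tested together with 15252 genes in all, and Sox17 did not pass it. The RNA came from germ cells that were sorted out of foetal mouse gonads at E12.5, and the embryos of every group carried an Oct4-eGFP reporter, from 129T2svJ males mated with Swiss females. Germ cells were isolated at once (XX 0 h and XY 0 h) or after organ culture with the mesonephros attached. XX gonads were cultured for 24 h or 72 h in DMSO, the vehicle. XY gonads were cultured for 24 h or 72 h in DMSO, in BGJ398/Infigratinib, which blocks FGF receptors (FGFRi), or in PD0325901/Mirdametinib, which blocks MEK1/2 (MEKi), each at 500 nM. Each of the 10 groups held 4 libraries, and each library came from several gonads pooled before sorting. The comparisons ask how these genes change in XY germ cells when FGFR or MEK1/2 is blocked in the cultured gonad. They also ask how XX and XY cells differ as they leave the PGC state. The whole gonad was treated, so effects within germ cells and effects through somatic cells cannot be told apart.

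PRDM1 (BLIMP1) is a zinc finger repressor that shuts down the somatic programme in the founders of the germ line. PRDM14 restores pluripotency genes and holds down DNA methylation there, and TFAP2C (AP-2 gamma) acts beside them. KIT is the receptor tyrosine kinase through which KIT ligand from somatic cells supports the survival, migration and division of PGCs. SOX17 acts near the top of the human PGC network and is better known in the mouse for endoderm and endothelium. DPPA4 is a chromatin protein of pluripotent and germ cells that works with DPPA2. In the foetal ovary germ cells go on to enter meiosis, and in the foetal testis they stop dividing and begin male differentiation.

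Library totals ran from 1178953 to 5199153 counts, with a median of 2135128.5. Levels are given as CPM (counts of a gene relative to the library total, on the usual CPM scale), with library sizes scaled by the TMM method. The summed CPM of 5 germ cell markers (Ddx4, Dazl, Pou5f1, Dppa3 and Mael) lay between 2073 and 5438 in the 40 libraries, against 21.7 to 143 for 14 markers of gonadal somatic cells. There were 2 library pools, each of 20 libraries. The first contained the 0 h groups, both 24 h DMSO groups and 24 h MEKi, and the other contained 24 h FGFRi and every 72 h group, so in comparisons of 72 h with earlier times, and of 24 h FGFRi with 24 h DMSO or MEKi, pool and group cannot be told apart. In XY 24 h DMSO, replicates 2 and 3 stood apart from replicates 4 and 5, with summed germ cell markers of 4467 and 4494 CPM against 3196 and 3324 CPM and summed blood markers of 128 and 145 CPM against 41.3 and 61.9 CPM. The labels do not say that replicates came from separate litters, so the p-values measure the spread between these libraries.

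Prdm1, Prdm14, Tfap2c and Kit fell in both sexes, and of their promoters those of Tfap2c and Kit are shown because they held GC box, AP-2 or E2F6-type matches. The windows of Prdm1 and Prdm14 held 1 CCAAT box and 1 PRDM1 core and none of those 3. Each is the GRCm39 sequence from 250 bases before to 50 bases into the Ensembl canonical transcript, written 5′ to 3′ on the strand of the gene. Capitals mark matches, on either strand, to the AP-2 motif GCCNNNGGC, the GC box GGGCGG, the CCAAT box CCAAT, the TATA box TATAAA, the E-box CACGTG, the E2F6-type motif TCCCGC, the PRDM1 core GAAAG and the SOX motif ACAATG. Tfap2c is on chromosome 2, plus strand, at 172391321 to 172400542, and Kit on chromosome 5, plus strand, at 75735576 to 75817404. The windows lie at chr2:172391071-172391370 and chr5:75735326-75735625.
Tfap2c: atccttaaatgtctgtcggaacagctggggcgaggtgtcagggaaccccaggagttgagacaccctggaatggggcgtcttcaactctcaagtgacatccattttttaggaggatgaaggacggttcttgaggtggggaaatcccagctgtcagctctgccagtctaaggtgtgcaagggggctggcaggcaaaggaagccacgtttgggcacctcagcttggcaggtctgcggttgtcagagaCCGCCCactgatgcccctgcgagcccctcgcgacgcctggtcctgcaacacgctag
Kit: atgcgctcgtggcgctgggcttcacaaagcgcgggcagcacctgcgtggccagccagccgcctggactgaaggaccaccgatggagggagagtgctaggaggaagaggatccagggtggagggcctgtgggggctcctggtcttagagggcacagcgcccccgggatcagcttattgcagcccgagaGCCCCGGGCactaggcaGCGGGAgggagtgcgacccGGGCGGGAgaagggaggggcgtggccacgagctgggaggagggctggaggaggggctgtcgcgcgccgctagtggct

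The Kit window held 22 CpG dinucleotides and the Tfap2c window 12, against a median of 11 over 21757 promoters of protein-coding genes. Kit also held 1 AP-2 motif, found in 16.9% of all promoters, together with 1 GC box (42.5% of promoters) that overlaps 1 of its 2 E2F6-type motifs (22.8% of promoters). Tfap2c held 1 GC box 6 bases before its start. The E-box was in neither window and in 7.82% of all promoters. The CCAAT box was in 39.9% of promoters, the TATA box in 13.2%, the PRDM1 core in 57.6% and the SOX motif in 10.8%, and none of these 4 was in the windows shown. These are matches of letters, not sites shown to be bound.

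At 0 h, XX germ cells had more Tfap2c than XY germ cells, and the other 4 tested genes differed by less than 1.5-fold. In XX 0 h libraries Tfap2c stood at 131, 107, 116 and 149 CPM, and in XY 0 h libraries at 57.5, 54.7, 62.4 and 58.8 CPM. All 4 XX libraries were above all 4 XY libraries. The log2 fold change, XY minus XX, was −1.13 ± 0.15 (SE, n = 4 and 4), and Tfap2c was the 1 member of 5 tested that was lower in XY (FDR = 0.013, limma treat against a 1.5-fold change), where 1.65% of all tested genes were lower and 1.34% higher. This call was lost without XX 0 h replicate 5 (FDR = 0.15) or XY 0 h replicate 3 (FDR = 0.12), under DESeq2 (FDR = 0.24) and with no filter on low counts (FDR = 0.087). Of 16 other PGC genes tested, 4 were lower in XY and none higher. They included the X-linked homeobox gene Rhox9 (27.9 CPM in XX and 7.21 CPM in XY, log2 fold change −1.97) and Alpl, the alkaline phosphatase used to stain PGCs (137 and 62.4 CPM, −1.12, FDR = 0.013). The Alpl call was lost with no filter on low counts (FDR = 0.13) and without XX 0 h replicate 5 (FDR = 0.071), XY 0 h replicate 5 (FDR = 0.081) or XY 0 h replicate 6 (FDR = 0.079).

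The other members overlapped between the sexes at 0 h. Prdm1 ranged from 41.3 to 65.2 CPM in XX and from 44.7 to 64.5 CPM in XY. Prdm14 ranged from 42.7 to 48.7 CPM in XX and from 36.5 to 47.4 CPM in XY. Kit ranged from 126 to 149 CPM in XX and from 111 to 143 CPM in XY, and Dppa4 from 246 to 327 CPM in XX and from 323 to 395 CPM in XY. The 95% intervals of the log2 fold changes of these 4 genes lay between −0.40 and 0.43, which is inside a 1.5-fold change.

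**Figure D1:**
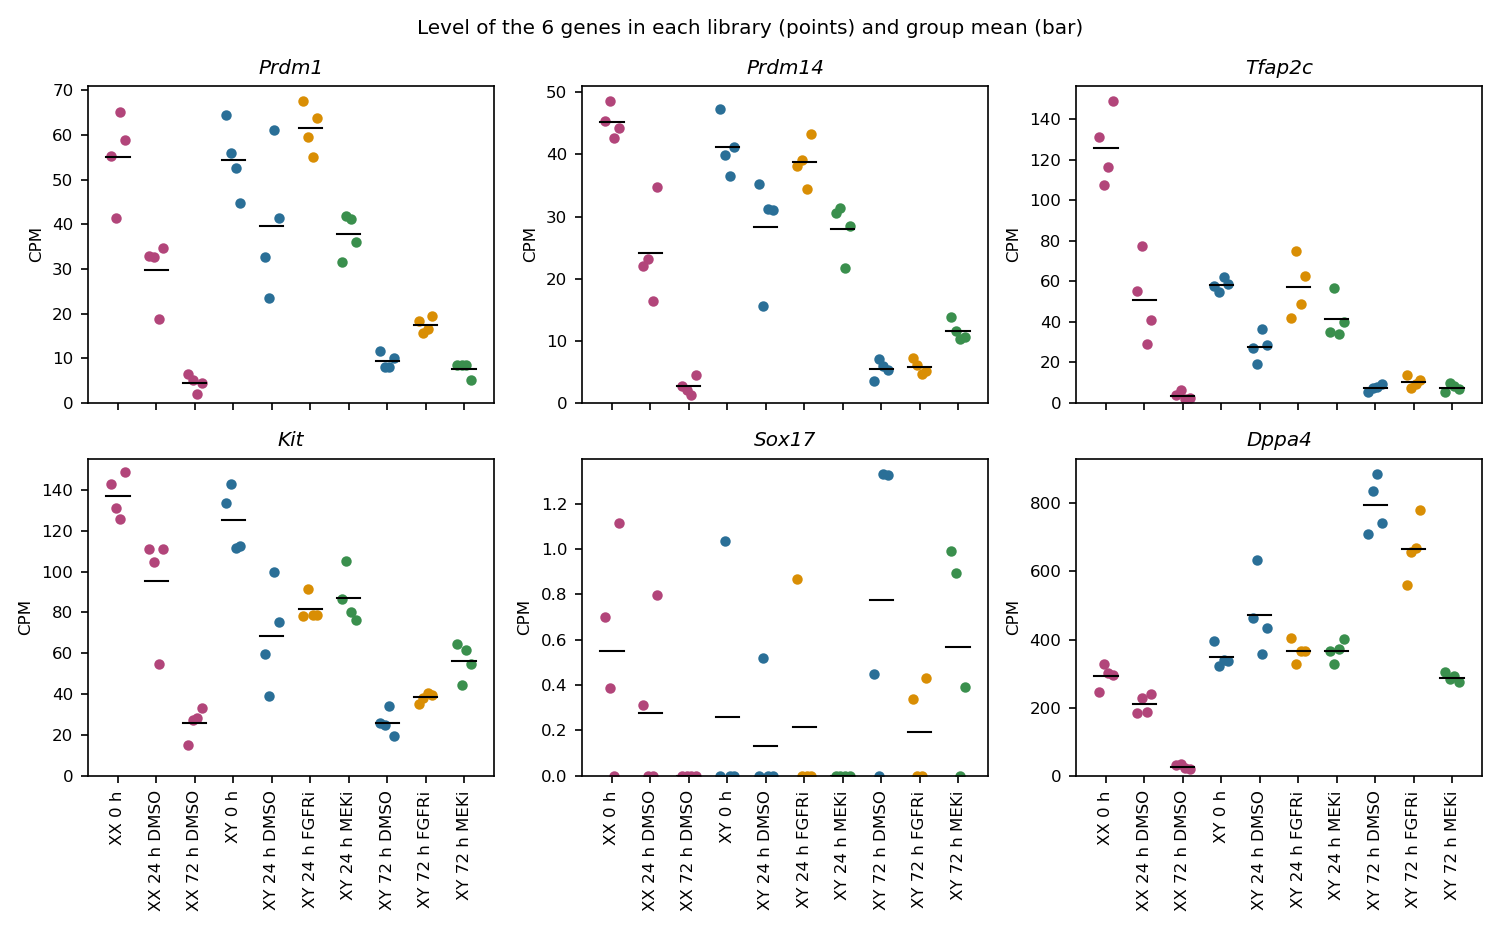
CPM of each gene (y axes, linear, starting at 0) in the 40 libraries of the 10 groups (x axes). Points are libraries, bars are group means and colours mark XX, XY without inhibitor, FGFRi and MEKi. Prdm1, Prdm14, Tfap2c and Kit are lowest in the 72 h groups, whereas Dppa4 reaches 711.2 to 887 CPM in XY 72 h DMSO and 20.1 to 33.0 CPM in XX 72 h DMSO. Sox17 stays at or below 1.33 CPM.

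Sox17 was close to 0 in every group. It had 31 counts over all 40 libraries, with 0 to 5 counts in any library and at least 1 count in 16 of them. XY 24 h MEKi and XX 72 h DMSO had no Sox17 count in any library. A count of 0 allows up to 3 counts, which is 0.508 to 2.67 CPM depending on the library, and covers counting error only. No fold change is given for it. Sox17 lies on chromosome 1, minus strand, at 4561151 to 4567784.

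The specifiers fell with time in culture, and by more in XX than in XY for Tfap2c. Prdm1 lies on chromosome 10, minus strand, at 44313171 to 44404497. It stood at 55.3, 41.3, 65.2 and 58.8 CPM in XX 0 h, at 33.0, 32.6, 18.8 and 34.7 CPM after 24 h and at 6.42, 5.16, 2.01 and 4.53 CPM after 72 h in DMSO. In XY it stood at 64.5, 56.0, 52.6 and 44.7 CPM at 0 h, at 32.7, 23.4, 61.2 and 41.4 CPM after 24 h and at 11.6, 7.94, 7.99 and 9.95 CPM after 72 h. The 72 h libraries of each sex lay below all its earlier libraries. From 0 h to 72 h Prdm1 fell in XX, with a log2 fold change of −3.49 ± 0.37 (SE), and in XY, with −2.49 ± 0.26.

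Prdm14 lies on chromosome 1, minus strand, at 13183405 to 13198351. Its XX libraries held 45.5, 48.7, 42.7 and 44.3 CPM at 0 h, 22.1, 23.2, 16.4 and 34.7 CPM at 24 h and 2.68, 2.06, 1.34 and 4.53 CPM at 72 h. Its XY libraries held 47.4, 39.9, 36.5 and 41.1 CPM at 0 h, 35.3, 15.6, 31.3 and 31.1 CPM at 24 h and 3.58, 7.11, 5.99 and 5.31 CPM at 72 h. At 72 h the counts behind these levels went down to 2 in an XX library. Prdm14 fell 15.2-fold in XX (−3.93 ± 0.39) and 7.54-fold in XY (−2.91 ± 0.29) over 72 h.

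Tfap2c went from its 0 h levels to 55.4, 77.5, 29.2 and 40.7 CPM in XX 24 h and to 3.75, 6.19, 2.01 and 2.59 CPM in XX 72 h. In XY it went to 27.0, 19.3, 36.4 and 28.4 CPM at 24 h and to 5.37, 7.11, 7.99 and 9.29 CPM at 72 h. The fall over 72 h was 32.9-fold in XX (−5.04 ± 0.46) and 7.92-fold in XY (−2.99 ± 0.32), and the 2 changes differed by 2.05 ± 0.56 on the log2 scale (FDR = 0.023, test of the difference). So Tfap2c, which was higher in XX at 0 h, averaged 3.63 CPM in XX 72 h and 7.44 CPM in XY 72 h, with overlapping ranges. Without XX 72 h replicate 8 the test of the difference gave FDR = 0.067, and with the replicate number as a block the difference was 1.10 with FDR = 0.45.

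Kit stood at 143, 131, 126 and 149 CPM in XX 0 h, at 111, 104, 54.5 and 111 CPM in XX 24 h and at 15.0, 27.4, 28.1 and 33.0 CPM in XX 72 h. XY libraries held 134, 143, 111 and 112 CPM at 0 h, 59.6, 39.1, 99.7 and 75.5 CPM at 24 h and 26.0, 24.7, 34.0 and 19.2 CPM at 72 h. XX and XY ended at the same mean, 25.9 and 26.0 CPM. Kit fell 5.56-fold in XX and 4.92-fold in XY over 72 h, and the difference between these changes was 0.18 with a 95% interval from −0.43 to 0.78 on the log2 scale.

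Dppa4, on chromosome 16, plus strand, at 48104062 to 48114896, parted from the others. In XX its level went from 246, 327, 301 and 297 CPM at 0 h to 184, 230, 187 and 241 CPM at 24 h and 31.0, 33.0, 23.4 and 20.1 CPM at 72 h. In XY it went from 395, 323, 341 and 338 CPM at 0 h to 463, 634, 358 and 434 CPM at 24 h and 711.2, 836, 887 and 741 CPM at 72 h. The XY 72 h DMSO libraries were above every other library except some of the XY 72 h FGFRi group, and the XX 72 h libraries were below every other library. Over 72 h the log2 level of Dppa4 fell in XX (−3.46 ± 0.19) and rose in XY (1.19 ± 0.10, a 2.29-fold change). The difference between these changes was 4.65 ± 0.22 on the log2 scale (FDR = 7e-22).

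All 5 tested members were lower at 72 h than at 0 h in XX, where 18.4% of all tested genes were lower and 18.8% higher, and their median log2 fold change was −3.49 beside −0.01 over all tested genes. In XY, 4 of 5 were lower, where 15.2% of tested genes were lower, and 1 was higher, where 20.2% were higher, with a median of −2.49 beside 0.06. The FDR of each of these 10 changes was at most 9.5e-07. From 24 h to 72 h, 5 of 5 were lower in XX (background 11.9%) and 4 of 5 in XY (background 11.3%). Dppa4 was 1.75-fold higher at 72 h than at 24 h in XY, with FDR = 0.062. It passed with RLE size factors (FDR = 0.0046), with library totals (FDR = 0.0008), in the fit of the compared groups alone (FDR = 0.044) and with XY 24 h DMSO replicates 2 and 3 left out (log2 fold change 1.00, FDR = 0.002), and also without XY 24 h DMSO replicate 2 (FDR = 0.049) or 3 (FDR = 0.0075) or XY 72 h DMSO replicate 2 (FDR = 0.037).

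Fewer members passed over the first 24 h. In XX, 1 of 5 was lower at 24 h than at 0 h, Tfap2c (2.49-fold, FDR = 0.0014), against 0.911% of tested genes. All 4 XX 24 h libraries were below all 4 XX 0 h libraries for each of the 5. The share of all tested genes that separate in this way is not given here, so this is a description only. In XY, 0 of 5 passed the test by limma treat, against 2.94% of tested genes in either direction, with 2 at an unadjusted p under 0.05 and 0 by edgeR and by DESeq2. The 2 were Tfap2c (−1.03, FDR = 0.25) and Kit (−0.88, FDR = 0.49). With no fold minimum all 5 members passed in both sexes, but the share of all tested genes that pass that test is not given here.

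Between the sexes in culture, Dppa4 was the 1 member of 5 that passed limma treat against a 1.5-fold change. It was 2.10-fold higher in XY than in XX at 24 h (1.07 ± 0.12, FDR = 0.0014), where 4% of tested genes were higher, although with XY 24 h DMSO replicates 2 and 3 left out the 24 h difference was 0.89 with FDR = 0.099. It was 29.2-fold higher in XY at 72 h (4.87 ± 0.19, FDR = 4.8e-26), where 22.8% were higher and 18.1% lower. At 24 h Tfap2c had a log2 fold change of −0.84 (95% interval from −1.24 to −0.43, FDR = 0.53) and Kit one of −0.51 (from −0.84 to −0.17, FDR = 1), and with no fold minimum both passed (FDR = 0.00074 and 0.012). At 72 h the Prdm1 means were 4.53 CPM (XX) and 9.38 CPM (XY), and the ranges did not overlap (XY 7.94 to 11.6, XX 2.01 to 6.42 CPM), with FDR = 0.36, or 0.045 with no fold minimum. For Prdm14 the log2 fold change was 0.89 with a 95% interval from −0.05 to 1.83, and for Tfap2c it was 0.93 from −0.15 to 2.01, so that these counts do not settle a difference of 1.5-fold in either gene. In the test of whether the change from 0 h to 72 h differed between the sexes, 2 of 5 members, Tfap2c and Dppa4, had the higher change in XY, against 16% of tested genes.

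**Figure D2:**
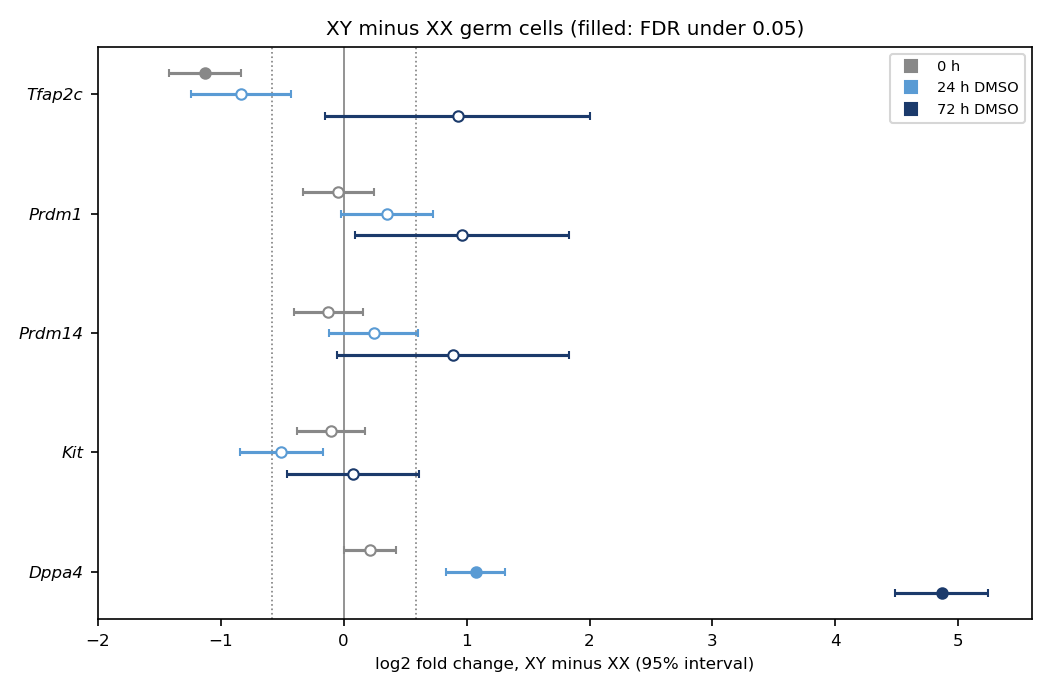
Log2 fold change, XY minus XX, of the 5 tested genes (x axis, 95% interval) at 0 h, 24 h and 72 h, with dotted lines at the 1.5-fold limit and filled points for FDR under 0.05. Tfap2c lies at −1.13 at 0 h, and Dppa4 moves from 0.21 at 0 h to 1.07 at 24 h and 4.87 at 72 h.

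At 24 h no member passed the test under either inhibitor. MEKi against DMSO is a comparison within 1 pool. Kit was at 86.4, 105, 80.4 and 76.1 CPM in MEKi and at 59.6, 39.1, 99.7 and 75.5 CPM in DMSO, and the groups overlapped. Tfap2c was at 34.8, 56.8, 33.9 and 40.0 CPM, and Dppa4 at 366, 328, 373 and 402 CPM. By limma treat, 0 of 5 passed, with 0 at an unadjusted p under 0.05 and 0 by edgeR and DESeq2, where 0.164% of tested genes passed. The 95% intervals of the 5 log2 fold changes lay between −0.51 and 0.91.

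FGFRi at 24 h lay in the other pool from its DMSO control. Prdm1 was at 67.7, 59.5, 55.1 and 63.8 CPM in FGFRi, and its group mean of 61.5 CPM was the highest of the 10 groups. Tfap2c was at 41.7, 75.0, 48.8 and 62.8 CPM, with all 4 FGFRi libraries above the 4 DMSO libraries (19.3 to 36.4 CPM) and a log2 fold change of 1.00 ± 0.21. None of the 5 passed (FDR = 1 for each), with 1 at an unadjusted p under 0.05, Tfap2c, and 0 by edgeR and DESeq2, where 0.262% of tested genes passed. With no fold minimum Tfap2c (FDR = 0.0011) and Prdm1 (FDR = 0.015) passed. Between MEKi and FGFRi at 24 h, 0 of 5 passed, with 0 at an unadjusted p under 0.05 and 0 by edgeR and DESeq2, where 0.105% of tested genes passed. Prdm1 was lower in MEKi, 31.6 to 42.0 CPM against 55.1 to 67.7 CPM, without overlap (log2 fold change −0.72 ± 0.17).

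At 72 h, when DMSO, FGFRi and MEKi lay in 1 pool, Dppa4 was lower in MEKi. Its libraries held 303, 283, 292 and 274 CPM in MEKi, 560, 657, 669 and 779 CPM in FGFRi and 711.2, 836, 887 and 741 CPM in DMSO. The MEKi libraries lay below all others of XY 72 h. Dppa4 was 2.74-fold lower in MEKi than in DMSO (−1.45 ± 0.10, FDR = 1.1e-09) and 2.24-fold lower than in FGFRi (−1.16 ± 0.10, FDR = 6.4e-06). By limma treat it was the 1 of 5 members that was lower, where 5.11% of tested genes were lower against DMSO and 6.98% against FGFRi, and no member passed in the other direction, where 4.01% of tested genes were higher against DMSO. Prdm1 was at 7.66 CPM in MEKi and 17.5 CPM in FGFRi, without overlap (−1.12, 95% interval from −1.59 to −0.65), with FDR = 0.086 by limma treat and FDR = 0.017 by edgeR. The MEKi level of Dppa4 was within 1.5-fold of that of XY 0 h (323 to 395 CPM, log2 fold change −0.26 with a 95% interval from −0.47 to −0.05). Its MEKi libraries still lay below all those of XY 0 h, with FDR = 0.029 by limma with no fold minimum. These 2 groups lay in different pools. Dppa4 in MEKi was 10.7-fold above its level in XX 72 h (FDR = 1.3e-18).

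The effect of MEKi on Dppa4 differed between 24 h and 72 h. On the log2 scale it was −0.29 at 24 h and −1.45 at 72 h, a difference of −1.16 ± 0.15 (FDR = 0.013), and Dppa4 was the 1 member of 5 with a lower effect at 72 h, against 0.675% of tested genes. The 24 h side of this test rests on XY 24 h DMSO, and the FDR was 0.093 without its replicate 4 and 0.076 without its replicate 5. With replicates 2 and 3, the libraries that stood apart, left out together the difference was −1.37 with FDR = 0.00066. DESeq2 gave FDR = 0.063 and limma treat without a filter on low counts gave FDR = 0.1.

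Kit and Prdm14 were higher in MEKi than in DMSO at 72 h in every library, but did not pass limma treat against 1.5-fold. With no fold minimum both passed (Kit FDR = 1.3e-05, Prdm14 FDR = 0.0048). Kit was at 64.5, 44.2, 61.6 and 54.9 CPM in MEKi against 26.0, 24.7, 34.0 and 19.2 CPM in DMSO, without overlap. Its log2 fold change was 1.11 ± 0.21 with FDR = 0.067, and it passed under edgeR (FDR = 0.018), with library totals in place of TMM (FDR = 0.029), in the fit of the compared groups alone (FDR = 0.03) and without MEKi replicate 3 (FDR = 0.031). Prdm14 was at 13.9, 11.6, 10.3 and 10.6 CPM in MEKi against 3.58, 7.11, 5.99 and 5.31 CPM in DMSO, also without overlap, with a log2 fold change of 1.03 ± 0.31 and FDR = 0.42. Prdm1 (5.09 to 8.59 CPM in MEKi) and Tfap2c (5.46 to 9.67 CPM) overlapped the DMSO libraries, with log2 fold changes of −0.27 and 0.17. The members' median log2 fold change was 0.17, beside 0.01 over all tested genes.

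Against XX 72 h, 3 of 5 members were higher in XY 72 h MEKi, where 17.2% of tested genes were higher. They were Dppa4, Prdm14 (3.78-fold, FDR = 0.0045) and Kit (2.27-fold, FDR = 0.021). The Kit call was lost without XX 72 h replicate 11 (FDR = 0.25), XX 72 h replicate 4 (FDR = 0.051) or MEKi replicate 4 (FDR = 0.052). It was also lost with DESeq2 (FDR = 0.11) and with no filter on low counts (FDR = 0.094). Against XY 0 h, 4 of 5 were lower in MEKi at 72 h, against 8.83% of tested genes. Prdm1 was 6.73-fold lower, Tfap2c 7.05-fold, Prdm14 3.70-fold and Kit 2.27-fold.

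No member passed the test for FGFRi at 72 h. Dppa4 overlapped its DMSO range. Prdm1 was at 18.3, 15.6, 16.6 and 19.4 CPM in FGFRi, above the 7.94 to 11.6 CPM of DMSO, with a log2 fold change of 0.86 and a 95% interval from 0.30 to 1.41. Kit was at 35.0, 38.1, 40.6 and 39.7 CPM, above the 19.2 to 34.0 CPM of DMSO, with a log2 fold change of 0.54 from 0.11 to 0.97. By limma treat 0 of 5 passed, with 0 at an unadjusted p under 0.05, 0 by edgeR, 0 by DESeq2 and 0 with no fold minimum, where 0.00656% of tested genes passed. The test of whether the FGFRi effect differed between times gave 0 of 5 as well, with 0 at an unadjusted p under 0.05 and 0 by edgeR and DESeq2, where 0.0328% of tested genes passed.

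**Figure D3:**
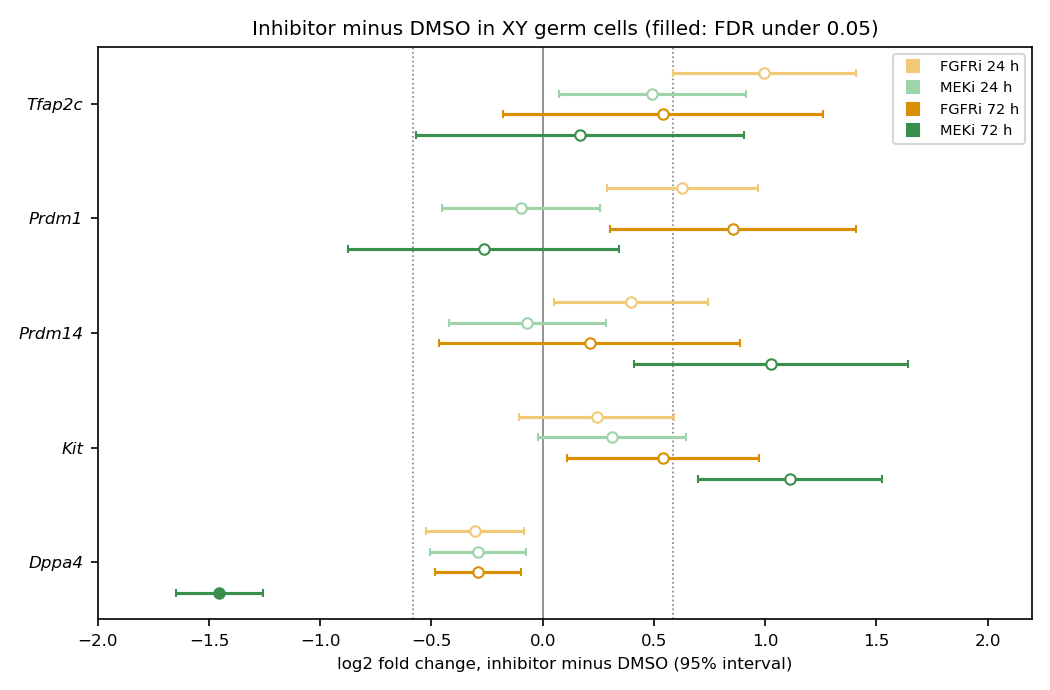
Log2 fold change, inhibitor minus DMSO, of the 5 tested genes in XY germ cells (x axis, 95% interval) at 24 h and 72 h, with dotted lines at the 1.5-fold limit and filled points for FDR under 0.05. Dppa4 in MEKi at 72 h, at −1.45, is the 1 filled point, and Kit and Prdm14 in MEKi at 72 h lie at 1.11 and 1.03.

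Across the 10 groups the span between the highest and the lowest group mean was 34.7-fold for Tfap2c, 29.5-fold for Dppa4, 17.1-fold for Prdm14, 13.6-fold for Prdm1 and 5.30-fold for Kit. XX 72 h DMSO was the lowest group for each of the 5. In the order of the group means, neighbours overlapped in most places. For Tfap2c the breaks without overlap came after XX 0 h and after XY 24 h DMSO. For Kit they came after XY 0 h, after XY 72 h MEKi and after XY 72 h FGFRi. For Prdm14 they came after XX 24 h DMSO and after XY 72 h MEKi, for Prdm1 after XY 72 h FGFRi, and for Dppa4 after XY 72 h MEKi and after XX 24 h DMSO.

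Prdm1, Prdm14, Tfap2c and Kit had similar profiles, with Pearson r of log2 CPM over the 40 libraries between 0.82 (Kit and Prdm1) and 0.92 (Prdm1 and Tfap2c). For Dppa4 the r with these 4 genes lay between 0.18 (Kit) and 0.42 (Prdm1). These correlations are descriptions over libraries that share groups and pools. Among the tested genes most like Prdm1 were Enpp3 (r = 0.95) and Gstm3 (0.94). Those most like Prdm14 were Ube2c, Klf5 and Trp53 (all 0.96), and those most like Tfap2c were Ckb (0.95), Tbx4 (0.94) and Mta3 (0.94). Kit was most like Ckb (0.93), Tyms (0.92) and Nid2 (0.92), and among those most like Dppa4 were Rexo2 (0.98) and Dnd1 (0.97), the RNA-binding partner of NANOS proteins in germ cells. Dnd1, which was picked for this correlation, stood at 313 CPM in XY 72 h DMSO, 336 CPM in FGFRi, 126 CPM in MEKi and 14.7 CPM in XX 72 h. At 0 h it was at 170 CPM in XX and 122 CPM in XY, the opposite order to Dppa4 (293 and 349 CPM).

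The known partners of these proteins were read from a list of 10 genes, 9 of which were tested. Dppa2, the partner of Dppa4, did not follow it in XY cells. It was at 30.3 to 36.8 CPM in XY 0 h, at 25.9 to 33.8 CPM in XY 24 h DMSO and at 8.63 to 14.6 CPM in XY 72 h DMSO, and fell 3.18-fold in XY (FDR = 0.00018) over the 72 h in which Dppa4 rose. In XX it fell 31.9-fold to 0.535 to 3.61 CPM (1 to 7 counts a library, FDR = 6.6e-10), and at 72 h it was 8.02-fold higher in XY than in XX (FDR = 0.00025). MEKi left it at 10.7 CPM, the mean of DMSO, with a log2 fold change of 0.02 and a 95% interval from −0.52 to 0.56.

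Cbfa2t2, the co-repressor that binds PRDM14, was at 72.0 to 82.2 CPM in XX 0 h and 77.5 to 85.6 CPM in XY 0 h, and fell 3.32-fold in XY (FDR = 2.5e-08) and by 1.03 on the log2 scale in XX (FDR = 0.0077, and 0.15 with DESeq2) over 72 h. Prmt5, the arginine methyltransferase that works with PRDM1, fell 3.11-fold in XX (FDR = 3.2e-11) and had FDR = 0.31 in XY, where its log2 fold change was −0.68. It was higher in XY than in XX at 72 h (2.67-fold, FDR = 3.5e-08) and at 24 h (1.82-fold, FDR = 0.04). The 24 h call was lost with library totals (FDR = 0.12) or RLE size factors (FDR = 0.06) in place of TMM, in the fit of the compared groups alone (FDR = 0.14), without XX 24 h DMSO replicate 4 (FDR = 0.15) or 6 (FDR = 0.16) or XY 24 h DMSO replicate 2 (FDR = 0.1) or 3 (FDR = 0.072), and with XY 24 h DMSO replicates 2 and 3 left out (FDR = 0.25). Wdr77, which forms a complex with PRMT5, ended at 64.5 to 82.3 CPM in XX and 63.9 to 81.6 CPM in XY at 72 h, and was at 149 to 164 CPM in MEKi, 2.12-fold above DMSO (FDR = 0.0016). In all, 6 of 9 partners were lower at 72 h than at 0 h in XX and 0 higher, and 4 were lower and 1 higher in XY, the histone methyltransferase gene Ehmt2 (2.72-fold). Of all tested genes 18.4% were lower in XX, and 15.2% were lower and 20.2% higher in XY. Between the sexes at 72 h, 5 of 9 were higher in XY and 1 lower, where 22.8% of tested genes were higher and 18.1% lower. The list was chosen with earlier results of these data known.

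**Figure D4:**
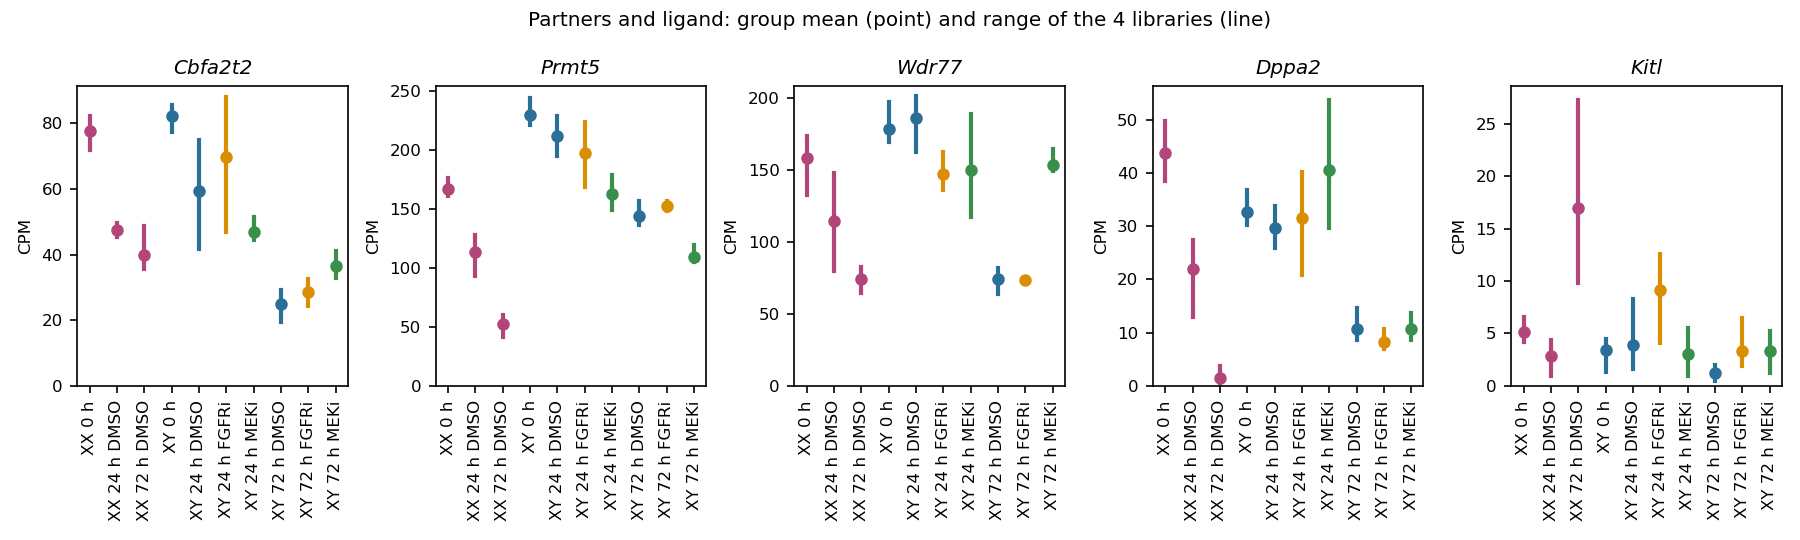
CPM of 4 partner genes and of Kitl (y axes, linear, starting at 0) in the 10 groups (x axes), with the group mean as a point and the range of 4 libraries as a line. Dppa2 falls to 1.37 CPM in XX 72 h DMSO, Wdr77 stands at 154 CPM in XY 72 h MEKi against 73.8 CPM in DMSO, and Kitl at 17.0 CPM in XX 72 h DMSO.

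Kitl, the ligand of KIT that somatic cells make, was low in the sorted cells, at 1.195 to 9.19 CPM as group means except in XX 72 h DMSO, where it was at 9.81 to 27.3 CPM. It was higher there than in XX 0 h (3.17-fold, FDR = 0.0069, 0.056 with no filter on low counts and 0.066 without XX 72 h replicate 11) and lower in XY than in XX at 72 h (13.2-fold, FDR = 5.7e-06). The summed level of 14 somatic markers also had its highest median in XX 72 h, at 92.4 to 143 CPM against 26.5 to 46.9 CPM in XX 0 h and 69.4 to 96.7 CPM in XY 72 h DMSO, with Amh and Insl3 at 0 in XX 72 h. The XX 72 h range also overlapped those of XY 72 h MEKi (74.1 to 128 CPM), XY 24 h DMSO (39.9 to 114 CPM) and XY 0 h (46.2 to 102 CPM). Of 11 somatic markers tested, 5 were higher in XX at 72 h than at 0 h, among them Nr2f2 (29.7 against 7.79 CPM) and Wt1 (23.4 against 8.97 CPM, FDR = 0.0022, and 0.072 without XX 0 h replicate 5), and 4 were lower in XY than in XX at 72 h and 1 higher. Of all tested genes, 18.8% were higher in the first comparison, and 18.1% lower and 22.8% higher in the second. Their part in the level of Kitl was not tested. The germ cell markers summed to 2073 to 2353 CPM in XX 72 h and 2610 to 2935 CPM in XX 0 h, but went opposite ways, as Dppa3 fell 11.4-fold and Pou5f1 10.9-fold while Mael rose 5.68-fold. In sorted pools, fewer cells of a type and less RNA per cell cannot be told apart.

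Of 20 genes of KIT signalling, 19 were tested. At 72 h against 0 h, 3 were higher and 6 lower in XX, with a median log2 fold change of −0.32, and 3 were higher and 3 lower in XY, with a median of 0.06. Of all tested genes, 18.8% were higher and 18.4% lower in XX, and 20.2% and 15.2% in XY. Ptpn6, the phosphatase SHP1 that damps KIT, fell 17.4-fold in XX (105 to 6.07 CPM) and was 8.75-fold higher in XY than in XX at 72 h. Akt1, a kinase downstream of PI3-kinase, fell 4.81-fold in XX and 4.62-fold in XY. Pik3r1, a regulatory subunit of PI3-kinase, rose 4.90-fold in XX, and Src rose 9.51-fold in XY. In MEKi at 72 h 1 of the 19 was lower, Ptpn6 (19.0 CPM against 52.0 CPM in DMSO), and none was higher, where 5.11% of tested genes were lower and 4.01% higher.

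Among 17 other PGC genes, 16 of them tested, 12 were lower at 72 h than at 0 h in XX and 0 higher, with a median log2 fold change of −3.25, where 18.4% of tested genes were lower. They included Sall4, a zinc finger factor of pluripotent and germ cells (492 to 23.1 CPM), Tcl1 (103 to 5.04 CPM) and the RNA-binding gene Lin28a (107 to 7.65 CPM). In XY, 6 were lower and 2 higher, with a median of −0.76, where 15.2% of tested genes were lower and 20.2% higher. Tcl1 fell 4.84-fold, Klf2 4.65-fold, Ifitm3 3.43-fold and Ifitm1 2.90-fold, the last 2 being surface proteins of early PGCs. At 72 h, 7 of the 16 were higher in XY than in XX and 2 lower, where 22.8% of tested genes were higher and 18.1% lower. Among the 7 were Dnd1 (22.0-fold), Nanos3 (17.3-fold), Sall4 (12.5-fold) and Dppa3 (8.70-fold). In MEKi at 72 h 1 of the 16 was lower, Dnd1 (2.37-fold, FDR = 5.3e-05), and none higher, where 5.11% of tested genes were lower.

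Genes that PRDM1 or PRDM14 is known to hold down were read from a list of 14, of which 9 were tested. In XY at 72 h against 0 h, 2 were higher, Dnmt3l (45.9-fold) and Dnmt3a (4.45-fold), which encode parts of the de novo DNA methylation machinery. There were 3 lower, among them Id3 (12.3-fold), a target of BMP signalling, and Fgfr2 (8.66-fold). In XX, 2 were higher and 3 lower, the 3 being Fgfr2, Fgfr1 and Id3. Of all tested genes, 20.2% were higher and 15.2% lower in XY, and 18.8% and 18.4% in XX. At 72 h MEKi lowered Dnmt3l 9.03-fold and Dnmt3a 2.31-fold, and 2 genes were higher, among them Uhrf1 (2.72-fold), where 5.11% of tested genes were lower and 4.01% higher. Among paralogues of the members, Prdm9, the histone methyltransferase that places meiotic recombination, rose 28.7-fold in XX (27.6 to 761 CPM), was 39.8-fold lower in XY than in XX at 72 h, and was 4.42-fold higher in MEKi than in DMSO (85.6 against 20.0 CPM). Prdm16 rose 16.5-fold in XY and 13.8-fold in XX and was 3.34-fold lower in MEKi than in DMSO.

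Markers of other cells moved in these comparisons too. In XY 24 h MEKi the summed level of 12 blood markers was 214 to 538 CPM against 41.3 to 145 CPM in XY 24 h DMSO, with 3 of the 7 tested, the haemoglobin genes Hbb-y, Hba-x and Hba-a2, higher by limma treat, where 0.164% of all tested genes changed in either direction, and none of the 3 by DESeq2 (FDR = 1). The 12 endothelial markers summed to 14.2 to 18.1 CPM in XX 72 h, 82.3 to 98.9 CPM in XY 72 h DMSO and 55.6 to 75.6 CPM in XY 72 h MEKi, and the 6 mesonephric markers to 41.1 to 53.9 CPM in XY 72 h DMSO and 29.0 to 34.9 CPM in MEKi. Of 4 mesonephric markers tested, 3 were lower in MEKi and 0 higher, beside 5.11% and 4.01% of all tested genes. Among the 3 were Krt18 (6.97-fold, FDR = 0.00041) and Pax8 (3.43-fold, FDR = 0.00061, and 0.075 with no filter on low counts). Of the 4 tested endothelial markers 2 were lower in MEKi than in DMSO, among them Egfl7 (2.15-fold, FDR = 0.0022, and 0.12 with no filter on low counts), and 1 was higher, Erg (2.27-fold, FDR = 0.029), where 5.11% of all tested genes were lower and 4.01% higher. The Erg call was lost with RLE size factors (FDR = 0.052), with DESeq2 (FDR = 0.095), in the fit of the compared groups alone (FDR = 0.054) and without XY 72 h DMSO replicate 4 (FDR = 0.21) or 5 (FDR = 0.051). The part of these markers in the lower level of Dppa4 in MEKi was not tested. From XY 0 h to XY 72 h DMSO the endothelial sum went from 28.2 to 43.0 CPM to 82.3 to 98.9 CPM, the mesonephric sum from 244 to 327 CPM to 41.1 to 53.9 CPM and the blood sum from 57.6 to 391 CPM to 42.6 to 88.2 CPM. Only 4 of the 12 endothelial markers passed the filter on low counts, and 3 of these were higher, where 20.2% of all tested genes were higher. Among the 3 were Egfl7 (17.95 to 51.5 CPM) and Erg (0.658 to 13.3 CPM). Of the 4 tested mesonephric markers, Lhx1 fell from 254 to 9.17 CPM and Pax8 rose from 2.70 to 17.9 CPM. Their part in the changes of the members over that time was not tested. Pou5f1 (Oct4), after which the eGFP reporter of the sort is named, was at 89.6 CPM in XX 0 h and 8.34 CPM in XX 72 h.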

How the data were processed

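Germ cells positive for GFP and negative for propidium iodide were sorted from pooled gonads, and 3′ libraries with molecular identifiers (UMIs) were prepared by the authors, who aligned reads to GRCm39 with Rsubread through scPipe. The deposited values are UMI-corrected counts per gene, with no normalisation. Totals were 1178953 to 5199153 counts. Here genes were filtered with edgeR 4.0.16 (filterByExpr, minimum count 10), scaled by TMM and fitted over all 40 libraries with limma 3.58.1 (voom with sample weights, treat against 1.5-fold), with Benjamini-Hochberg adjustment over 15252 genes and FDR under 0.05 as the threshold. Alternatives included edgeR, DESeq2 1.42.0, other scalings, no filter, a replicate block and leaving out each library. Scripts were tested on simulated data. The members and lists were chosen with earlier results of these data known. Named genes were the members, 5 partners or ligands, up to 4 called genes per list and comparison with the largest change and a mean of at least 10 CPM, and the 3 genes most correlated with each member. Of 42422 genes, 40391 were matched to the annotation. Intervals cover 95%, and counting floors cover counting error only. A pair of correlated genes and some promoter sequences are not reported here.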

Additional observations from a re-analysis of the deposited data

Results flagged for a closer look

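In 7 cases, each 1 gene in 1 group and 5 groups in all, a single library lay far from the other 3 by Dixon's test at the 95% level, a rate at which some cases are marked by chance alone. Replicate 6 of XX 24 h DMSO was low for both Prdm1 (18.8 CPM) and Kit (54.5 CPM). The lowest XY 72 h MEKi library held 5.09 CPM of Prdm1, and the highest XY 24 h FGFRi library held 91.2 CPM of Kit. The 3 cases of Sox17 were 1.04 CPM in XY 0 h (4 counts), 0.521 CPM in XY 24 h DMSO (1 count) and 0.868 CPM in XY 24 h FGFRi (1 count). There the other 3 libraries had no count, so Dixon's test marks any value above 0 and says nothing of these libraries.

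Among the members, tests of a difference between 2 effects passed for 3 results. The effect of MEKi on Dppa4 was lower at 72 h than at 24 h by −1.16 on the log2 scale (limma treat, FDR = 0.013). The change from 0 h to 72 h differed between the sexes by 2.05 for Tfap2c (FDR = 0.023) and by 4.65 for Dppa4 (FDR = 7e-22).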

How the results depend on the processing

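The number of members past FDR 0.05 was recomputed under each alternative. Shares of all tested genes are given for limma treat against 1.5-fold only, so these counts have no background of their own. With no fold minimum it was 5 for 24 h against 0 h in each sex, 3 for XY against XX at 24 h and 2 at 72 h, 2 for FGFRi at 24 h, 1 for MEKi against FGFRi at 24 h and 4 at 72 h, and 3 for MEKi at 72 h and for the MEKi effect at 72 h less 24 h. It was 2 for MEKi at 72 h with library totals, with edgeR and with the compared groups alone, and 2 for MEKi against FGFRi at 72 h with edgeR. It was 0 for XY against XX at 0 h and for the MEKi effect at 72 h less 24 h with no filter on low counts and with DESeq2. For XY at 72 h against 24 h it went from 4 to 5 with RLE size factors, library totals, no fold minimum and the compared groups alone. With XY 24 h DMSO replicates 2 and 3 left out, an alternative chosen after seeing the data, it was 0 for XY against XX at 24 h. Leaving out 1 library at a time gave 0 to 1 for XY against XX at 0 h, 1 to 2 for MEKi at 72 h, 0 to 1 for the MEKi effect at 72 h less 24 h and 1 to 2 for the sex difference at 72 h less 0 h. Same-numbered replicates had deviations correlated between −0.12 and 0.15, so the numbers were not taken to pair libraries. With the replicate number as a block, the count was 0 for XY against XX at 0 h, for XX at 24 h against 0 h and for the MEKi effect, and 1 for XY 72 h MEKi against XX 72 h and for the sex difference. The calls of members lost with the block were those of Tfap2c in XY against XX at 0 h (log2 −1.07, FDR = 0.16), in XX at 24 h against 0 h (−1.18, FDR = 0.11) and in the sex difference (1.10, FDR = 0.45), Dppa4 in the MEKi effect (−1.13, FDR = 0.051), and Kit (1.07, FDR = 0.28) and Prdm14 (2.22, FDR = 0.086) in XY 72 h MEKi against XX 72 h. Among the other genes named, they included Dppa2 in XY against XX at 72 h (1.45, FDR = 0.24), and Kitl (0.67, FDR = 0.8), Cbfa2t2 (−1.11, FDR = 0.1) and Wt1 (0.89, FDR = 0.55) in XX at 72 h against 0 h, and Prdm9 (2.29, FDR = 0.09), Prdm16 (−1.86, FDR = 0.42) and Pdgfrb (−2.004, FDR = 0.095) in MEKi at 72 h. Over all single-gene values of the members, 1862 of 1954 kept direction and side of the threshold, 21 lost the call, 37 gained it and 34 turned sign, and no value that turned sign was a call. With replicate block, the log2 fold changes that turned sign were 0.0219 for Kit in XY against XX at 0 h, 0.0892 for Prdm1 in XY against XX at 0 h, −0.00924 for Kit in XY against XX at 72 h, −0.0311 for Kit in the sex difference at 72 h less 0 h, 0.29 for Wdr77 in XY against XX at 72 h, −0.0445 for Dppa2 in MEKi at 72 h. With DESeq2, the log2 fold changes that turned sign were −0.00775 for Kit in XY against XX at 72 h, −0.0204 for Dppa4 in MEKi against FGFRi at 24 h, −0.0133 for Dppa2 in MEKi at 72 h. With replicates 2 and 3 left out, the log2 fold changes that turned sign were −0.0563 for Kit in FGFRi at 24 h, 0.12 for Prdm1 in the MEKi effect at 72 h less 24 h, −0.17 for Dppa4 in the FGFRi effect at 72 h less 24 h. With RLE size factors, the log2 fold changes that turned sign were −0.00813 for Dppa4 in MEKi against FGFRi at 24 h, −0.0239 for Dppa4 in the FGFRi effect at 72 h less 24 h, −0.0394 for Dppa2 in MEKi at 72 h. With the compared groups alone, the log2 fold changes that turned sign were −0.00676 for Dppa4 in the FGFRi effect at 72 h less 24 h, 0.0074 for Wdr77 in XY against XX at 72 h. With library totals, the log2 fold changes that turned sign were 0.11 for Wdr77 in XY against XX at 72 h. Without 1 library, values that crossed 0 ran from −0.17 to 0.0657 for Prdm1 in XY against XX at 0 h, from −0.22 to 0.25 for Kit in XY against XX at 72 h, from −0.24 to 0.13 for Prdm1 in MEKi at 24 h, from −0.20 to 0.0359 for Prdm14 in MEKi at 24 h, from −0.0405 to 0.0631 for Dppa4 in MEKi against FGFRi at 24 h, from −0.00338 to 0.13 for Kit in MEKi against FGFRi at 24 h, from −0.035 to 0.38 for Prdm14 in FGFRi at 72 h, from −0.00229 to 0.27 for Tfap2c in MEKi at 72 h, from −0.0814 to 0.14 for Dppa4 in the FGFRi effect at 72 h less 24 h, from −0.12 to 0.39 for Kit in the sex difference at 72 h less 0 h, from −0.0775 to 0.0543 for Wdr77 in XY against XX at 72 h, from −0.11 to 0.15 for Dppa2 in MEKi at 72 h. The cause of these changes was not tested. Removing the share of counts that libraries with a common index could have exchanged changed no call of a member, but ended that of Hba-a2 in MEKi at 24 h (FDR = 0.09). As a percentage of the counts of the partner library, from XY 72 h MEKi, the share was 13.8% and 11.3% for XY 24 h DMSO replicates 2 and 3. These are the libraries that stood apart, and for replicates 4 and 5 it was 4.79% and 6.57%. Counts limit Prdm14, Tfap2c and Prdm1 at 72 h, and Sox17 throughout.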
